A study of Mus musculus with 15 samples.

Results

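The purinergic receptors and ectonucleotidases described here are 10 genes through which a cell senses and degrades extracellular nucleotides: the ATP-gated channels P2rx4 and P2rx7, the G protein-coupled nucleotide receptors P2ry2, P2ry6, P2ry12, P2ry13 and P2ry14, the adenosine receptor Adora2b, and the surface enzymes Entpd1 and Nt5e. Members were found as the probe sets that the annotation of the array assigns to 1 of these symbols alone. It assigned 18 probe sets to 9 of the 10 genes and listed none for Adora2b, which was therefore not analysed here. A signal was present in at least 1 group for 14 of the 18 probe sets, meaning a mean signal at or above 59.6, the value corresponding to the 40th percentile of mean log2 signal over all probe sets. After the same filter was applied to the mean over all arrays, 13 probe sets and 7 genes remained among 12701 genes tested. P2ry2 and Nt5e were not tested. The RNA came from a dendritic cell line of A/J background, established from newborn mouse epidermis, and was hybridised to 15 arrays, in 5 groups of 3. Controls were non-treated. The contact allergen dinitrofluorobenzene (DNFB), which binds covalently to proteins, was given to the DNFB group. Others received hydrogen peroxide (H2O2), an oxidant, or diphenyl iodonium (DPI), which inhibits NADPH oxidases and other flavoenzymes, and the last group received DPI + DNFB. Doses and exposure times were not given in the sources used here, and the labels speak of non-treated cells where the series design speaks of a vehicle. All results concern 1 cell line, and no genetic change was described for any group.

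Cells release ATP and other nucleotides when they are stressed or injured, and neighbouring immune cells read them as danger signals. P2X receptors are cation channels opened by ATP, and P2Y receptors are coupled to G proteins and respond to ATP, ADP, UTP, UDP or UDP-glucose. The ectonucleotidase CD39, encoded by Entpd1, degrades ATP and ADP to AMP, CD73, encoded by Nt5e, converts AMP to adenosine, and adenosine acts on receptors such as that encoded by Adora2b. Langerhans cells, the dendritic cells of the epidermis, are known for their CD39, and P2X7 is known in contact allergy as the channel through which ATP triggers release of interleukin-1 beta.

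P2ry14, P2ry13 and P2ry12 are neighbours on mouse chromosome 3. Their promoters are shown because the signals of the 3 genes were lower after both DNFB and H2O2. The RefSeq promoter table (GRCm38.p6) held entries for 9 of the 10 members, all but P2ry6, and 15 start sites in all. Each sequence below holds the 250 bases before a start site on the minus strand, P2ry12 at chr3:59262986-59263235, P2ry13 at chr3:59210883-59211132 and the first of 4 start sites of P2ry14 at chr3:59153493-59153742, and capitals mark a match to a searched motif.
P2ry12: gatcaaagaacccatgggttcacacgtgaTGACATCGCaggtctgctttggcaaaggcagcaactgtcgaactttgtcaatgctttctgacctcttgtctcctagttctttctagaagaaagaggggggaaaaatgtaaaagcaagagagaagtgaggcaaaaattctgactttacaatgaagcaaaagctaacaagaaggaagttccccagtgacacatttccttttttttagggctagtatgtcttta
P2ry13: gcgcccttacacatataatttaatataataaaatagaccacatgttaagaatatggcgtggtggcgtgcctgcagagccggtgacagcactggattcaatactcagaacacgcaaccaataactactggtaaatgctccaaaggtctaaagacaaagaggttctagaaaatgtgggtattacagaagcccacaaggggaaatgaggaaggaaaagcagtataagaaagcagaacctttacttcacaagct
P2ry14: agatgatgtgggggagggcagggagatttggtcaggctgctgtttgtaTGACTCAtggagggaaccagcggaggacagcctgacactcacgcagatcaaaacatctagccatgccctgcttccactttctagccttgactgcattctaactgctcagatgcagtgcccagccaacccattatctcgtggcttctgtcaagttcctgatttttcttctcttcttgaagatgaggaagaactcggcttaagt
The motifs were searched on both strands in the same 250 bases of all 32851 promoters. They were the AP-1 element TGANTCA, found in 6.75% of all promoters, the antioxidant response element core TGACNNNGC (10.2%), the cAMP response element TGACGTCA (1.55%), the PU.1 motif GAGGAAGT (2.44%) and the interferon-stimulated element core, GAAA repeated after any 2 bases (2.98%). The P2ry14 sequence held 1 AP-1 match starting 202 bases before the start, and the second P2ry14 start site held another at 144 bases. P2ry12 held 1 match to the antioxidant response element core at 221 bases. The P2ry13 sequence held no match to any of the 5 motifs. Among the other members, P2rx4 had 1 match to the antioxidant response element core at 151 bases. The first of the P2rx7 start sites had 1 AP-1 match at 249 bases and 1 antioxidant response element core at 88 bases. A match describes letters and is not evidence of a bound site.

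The arrays had been deposited at different scales, with a trimmed mean of 250 on 6 (all arrays numbered 1, and DNFB replicate 3) and of 500 on 9, and all were rescaled to 500. Within groups, r between arrays across the 12701 tested genes was 0.946 to 0.973. The labels do not say whether replicates were separate cultures, and the p-values therefore reflect the spread of arrays that may be technical replicates. The beta-actin 3'/5' signal ratio, a measure of RNA quality, was 2.07, 1.504 and 2.29 on the DPI + DNFB arrays and between 1.19 and 1.53 on the other 12. All 10 measured dendritic cell markers and all 3 Langerhans cell markers passed the signal cutoff, the latter including the Langerhans cell lectin Cd207, whose group means ranged from 31.9 with DPI to 988 with DNFB. Of 5 keratinocyte markers Krt5 (67.7 without treatment, 259 with DNFB) and Trp63 passed and Krt14, Krt1 and Krt10 did not. Of 4 T cell markers Cd8a (197 to 272) passed and Cd3e, Cd3g and Cd3d did not. Of 4 mast cell markers Kit (1761 without treatment, 442 with DPI + DNFB) and Tpsb2 passed and Cpa3 and Mcpt4 did not. Tyr and Pmel passed of 4 melanocyte markers, and Col1a2 alone of 5 fibroblast markers. All 6 measured macrophage and microglia markers passed. Their summed signal ran from 1241 with DNFB to 2931 in non-treated cells, of which the microglial gene Tmem119 alone made up 270 and 2040. Fewer cells of a type and less RNA per cell cannot be told apart in such bulk samples. Group signals below are means of log2(signal + 15) turned back to signal, and fold changes are differences of these log2 values, which understates the change of dim genes.

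Against non-treated cells, members fell and none rose in each of the 4 treated groups, in the limma fit at a Benjamini-Hochberg adjusted p below 0.05 over all genes. With DNFB, 3 of 7 tested members fell (P2ry12, P2ry13 and P2ry14), and 24.4% of all genes were called in that comparison, 10.5% as higher and 13.9% as lower. With H2O2, 4 of 7 fell (the same 3 and P2rx4), against 28.3% of all genes called, 10.9% higher and 17.4% lower. With DPI, 4 of 7 fell (P2rx4, P2ry6, P2ry13 and P2ry14), against 31.8% called, 13.3% higher and 18.4% lower. With DPI + DNFB the 4 that fell were again P2rx4, P2ry6, P2ry13 and P2ry14, against 33.8% called and 18.7% lower. The 4 comparisons share the 3 non-treated arrays. The median log2 fold change of the 7 members was -0.11 with DNFB (-0.06 over all genes), -0.71 with H2O2 (-0.06), -0.92 with DPI (-0.01) and -0.65 with DPI + DNFB (0.02). The ranges of the 3 treated and the 3 non-treated arrays did not overlap for 6, 5, 4 and 5 of the 7 members in these comparisons, and for 41.5%, 42.8%, 46.2% and 44.4% of all genes.

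**Figure D1:**
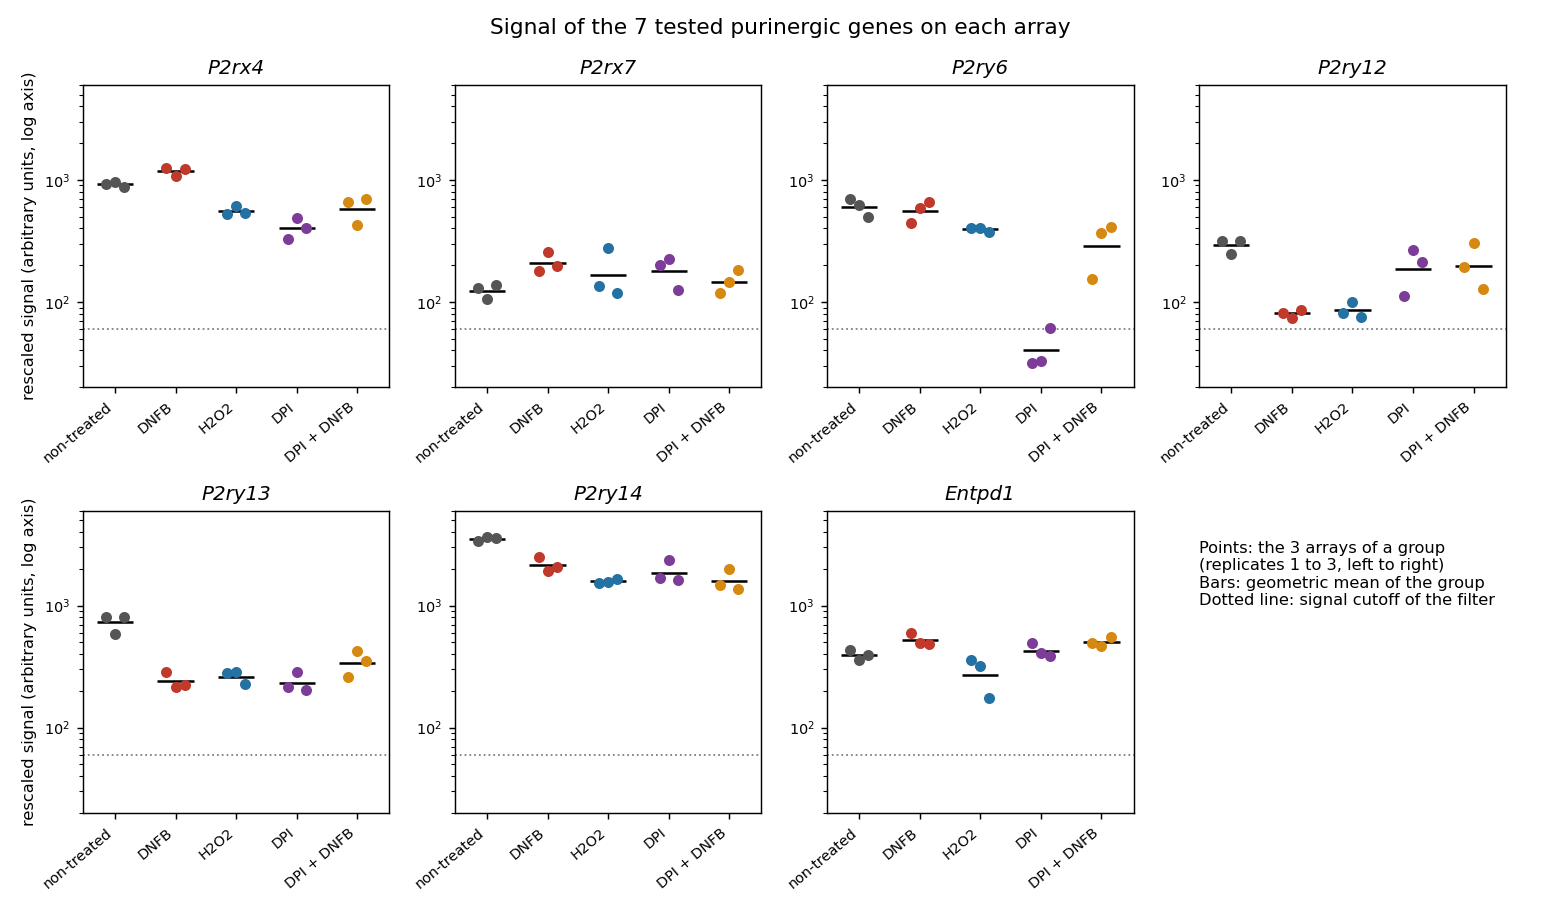
Rescaled signal (arbitrary units, log axis) of the 7 tested members on each of the 15 arrays, by group, with the group mean as a bar and the signal cutoff of 59.6 as a dotted line. P2ry13 and P2ry14 were highest on the 3 non-treated arrays, P2ry12 sat lowest on the DNFB and H2O2 arrays, and P2ry6 lay between 31.7 and 61.4 on the DPI arrays.

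P2rx4, an ATP-gated channel abundant in macrophages and microglia, gave a signal of 923, 961 and 879 on the non-treated arrays and of 1258, 1067 and 1222 with DNFB (probe set 1425525_a_at). It was 525, 611 and 538 with H2O2, 330.5, 489 and 400.3 with DPI, and 656, 425 and 703 with DPI + DNFB. All non-treated arrays lay below all DNFB arrays and above those of the other 3 groups. P2rx4 fell 1.64-fold with H2O2 (log2 fold change -0.71 ± 0.18 SE, adjusted p = 0.00481), 2.25-fold with DPI (-1.17 ± 0.18, adjusted p = 4.68e-05) and 1.57-fold with DPI + DNFB (-0.65 ± 0.18, adjusted p = 0.00779). The DNFB difference of 0.35 ± 0.18 did not pass (adjusted p = 0.170).

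In order of level, P2rx4 was highest with DNFB (mean 1180), then in non-treated cells (920), DPI + DNFB (581), H2O2 (557) and DPI (402). The ranges of DPI + DNFB and H2O2 overlapped. P2rx4 was 2.09-fold higher with DNFB than with H2O2 (1.06 ± 0.18, adjusted p = 4.53e-04) and 2.003-fold lower with DPI + DNFB than with DNFB (-1.002 ± 0.18, adjusted p = 1.23e-04), in both cases without overlap of the arrays. Against DPI alone, DPI + DNFB was 1.43-fold higher (0.52 ± 0.18, adjusted p = 0.0356). The ranges of those groups overlapped, and the call was lost when DPI replicate 1, DPI replicate 3, DPI + DNFB replicate 1 or DPI + DNFB replicate 3 was left out (0.38 to 0.74). A second probe set of the gene, 1452527_a_at, had the opposite sign there (-0.42 ± 0.24, adjusted p = 0.236).

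That second P2rx4 probe set had means of 485 in non-treated cells, 586 with DNFB, 280 with H2O2, 244 with DPI and 179 with DPI + DNFB. In a fit over all probe sets it too was lower with H2O2 (-0.76 ± 0.24, adjusted p = 0.0312), DPI (-0.95 ± 0.24, adjusted p = 0.00715) and DPI + DNFB (-1.37 ± 0.24, adjusted p = 3.05e-04) than without treatment. It was higher with DNFB than with H2O2 (1.03 ± 0.24, adjusted p = 0.0104). The third P2rx4 probe set past the filter, 1446429_at, ranged from 88.7 to 266 over all arrays and was called in none of the 8 comparisons. The remaining one, 1441772_at, had no group mean at the cutoff.

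P2rx7, the ATP-gated channel that opens a large pore and drives the NLRP3 inflammasome, had signals of 129, 106 and 138 without treatment and of 178, 256 and 199 with DNFB (1439787_at). With H2O2 the arrays read 135, 277 and 118, with DPI 201, 223 and 125, and with DPI + DNFB 119, 145 and 184. The DNFB arrays lay above the non-treated arrays, while every other treated group overlapped them. None of the 8 comparisons passed for P2rx7. The largest pairwise difference was that of DNFB against no treatment, 0.69 ± 0.32 (95% interval 0.02 to 1.36, adjusted p = 0.132). Its other probe sets past the filter, 1422218_at and 1419853_a_at, had DNFB differences of 0.45 ± 0.31 and 0.77 ± 0.46 and passed in no comparison either. Neighbouring groups in the order of P2rx7 levels (DNFB 209, DPI 178, H2O2 165, DPI + DNFB 147, non-treated 123) all overlapped.

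**Figure D2:**
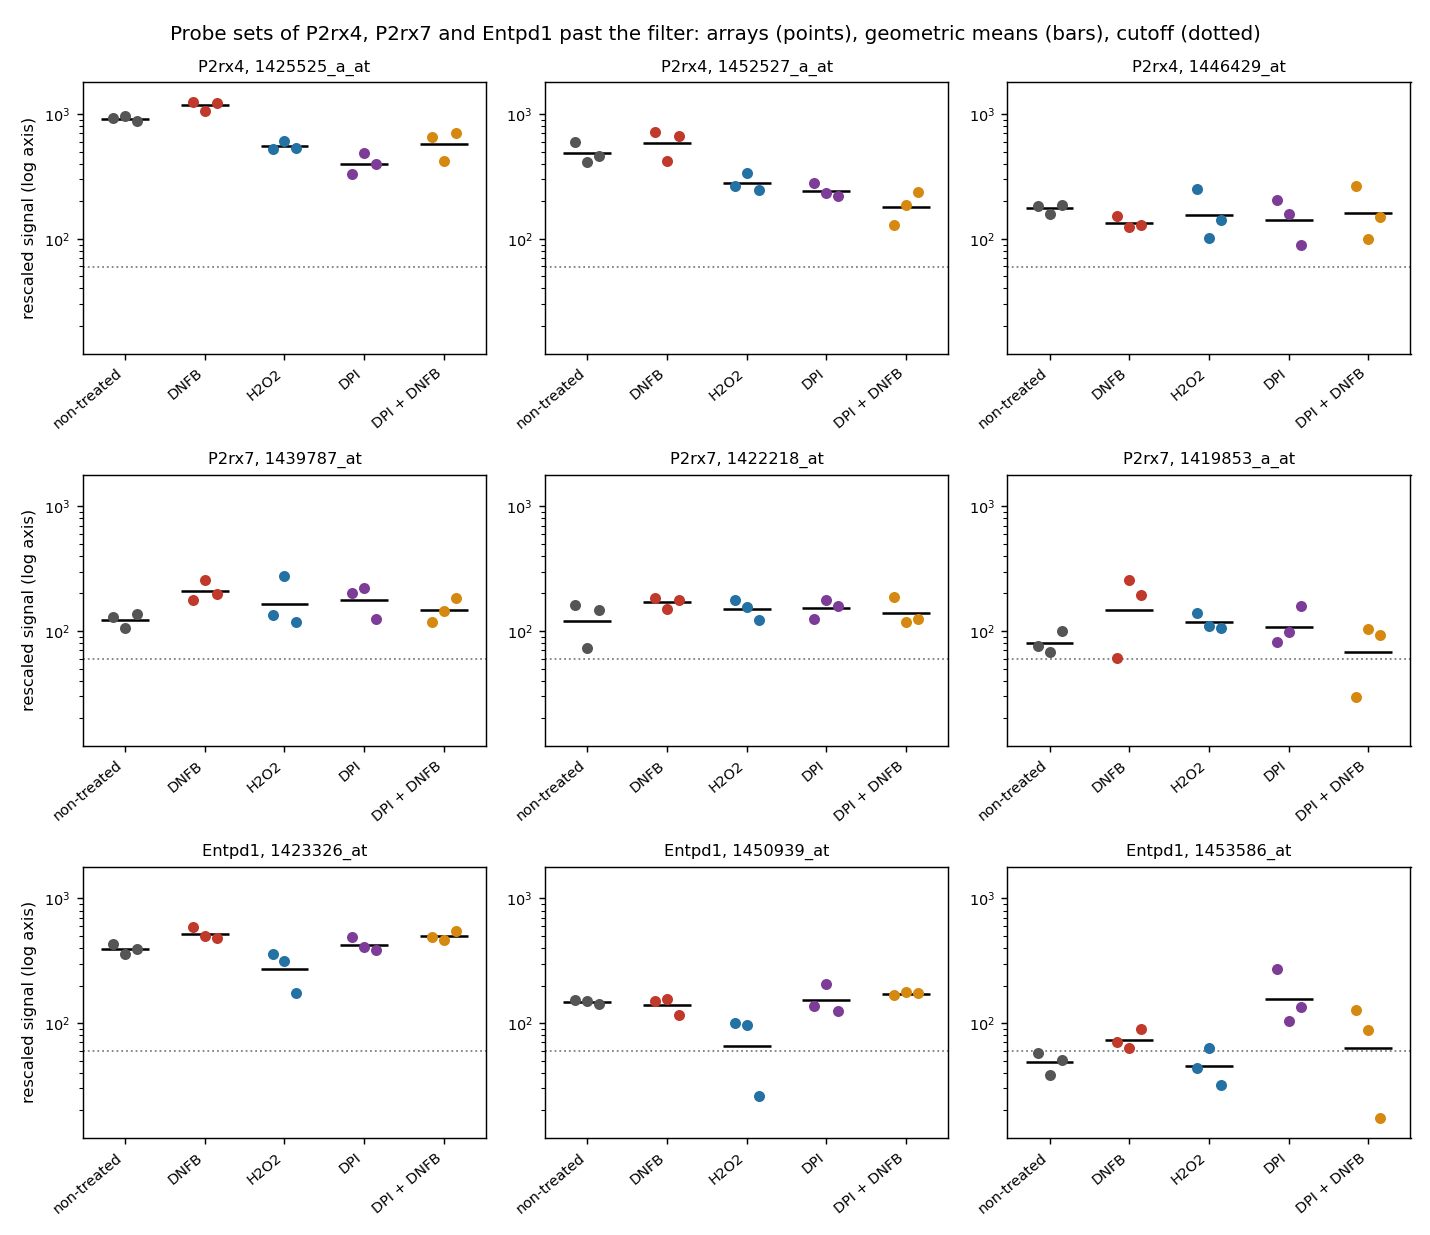
Rescaled signal (arbitrary units, log axis) of the 3 probe sets past the filter for each of P2rx4, P2rx7 and Entpd1, by group, with points for arrays, bars for group means and a dotted line at the cutoff of 59.6. For P2rx4 the 1425525_a_at and 1452527_a_at probe sets are both lower with H2O2 and DPI than without treatment, but DPI + DNFB lies above DPI in the former (581 and 402) and below it in the latter (179 and 244).

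P2ry6, the receptor for UDP, had the widest range of group means among the tested members, 3.47 on the log2 scale. Its probe set 1425214_at read 695, 628 and 492 without treatment, 443, 584 and 661 with DNFB, and 404, 403 and 371 with H2O2. With DPI it read 31.7, 32.8 and 61.4, and with DPI + DNFB 153, 367 and 410.5. The 3 DPI arrays were the lowest of the 15, and 2 of them lay below the cutoff of 59.6. The DPI + DNFB arrays stood between DPI and the non-treated arrays without overlapping either.

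P2ry6 was at least 9.94-fold lower with DPI than in non-treated cells, with the 2 dim DPI arrays set to the cutoff (log2 difference -3.47 ± 0.30, adjusted p = 5.11e-08). The mean went from 599 to 40.5. Because the DPI signal was dim, the log2 difference depends on the pseudocount, with -3.87 at a pseudocount of 1 and -2.83 at 50. Within arrays deposited at 500 it was -3.24 (adjusted p = 2.43e-05). The arrays deposited at 250 hold 1 array of each group but DNFB, so that values within them are differences between single arrays, given here with no test. For P2ry6 with DPI that difference was -3.92. P2ry6 did not pass with DNFB (-0.11 ± 0.30, adjusted p = 0.852) or with H2O2 (-0.59 ± 0.30, adjusted p = 0.152), although all H2O2 arrays were below all non-treated arrays.

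When DNFB was added to DPI, P2ry6 was at least 4.72-fold higher than with DPI alone, by the same bound. The log2 difference was 2.44 ± 0.30 (adjusted p = 1.33e-05), 2.80 at a pseudocount of 1 and 1.90 at 50. It was called 1.90-fold lower than with DNFB alone (-0.92 ± 0.30, adjusted p = 0.0157) and 2.04-fold lower than in non-treated cells (-1.03 ± 0.30, adjusted p = 0.0109). The lowest DPI + DNFB array, replicate 1 at 153, bore on both. Without it the difference from non-treated cells was -0.61 (adjusted p = 0.0803) and that from DNFB -0.50 (adjusted p = 0.126). Leaving out DNFB replicate 3 also ended the call against DNFB. Within the arrays deposited at 500 the difference from non-treated cells was -0.50 (adjusted p = 0.234), and between the single arrays at 250, where replicate 1 stands for DPI + DNFB, it was -2.08.

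P2ry12 encodes the ADP receptor known as the platelet target of clopidogrel and as a marker of microglia. Its signal was 318, 246 and 313 on the non-treated arrays, 81.6, 74.4 and 85.5 with DNFB, and 81.5, 101 and 75.1 with H2O2 (1431724_a_at). It was 112, 266 and 211 with DPI and 194, 307 and 128 with DPI + DNFB. The 6 DNFB and H2O2 arrays were the lowest of the 15, and the DPI and DPI + DNFB groups both overlapped the non-treated arrays.

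P2ry12 fell 3.20-fold with DNFB (-1.68 ± 0.33, adjusted p = 7.75e-04) and 3.05-fold with H2O2 (-1.61 ± 0.33, adjusted p = 0.00104). The difference between DNFB and H2O2 was -0.07 ± 0.33 (95% interval -0.77 to 0.63, adjusted p = 0.926). The differences of DPI (-0.61 ± 0.33, adjusted p = 0.186) and DPI + DNFB (-0.52 ± 0.33, adjusted p = 0.244) from non-treated cells did not pass. With DPI + DNFB the level was 2.23-fold above that with DNFB alone (1.16 ± 0.33, adjusted p = 0.00794), a call that ended without DPI + DNFB replicate 2 (0.86, adjusted p = 0.0539). The summed signal of the 6 macrophage and microglia markers was 2931 without treatment, 1241 with DNFB, 1351 with H2O2, 1435 with DPI and 2246 with DPI + DNFB. Among them the microglial transmembrane gene Tmem119 had means of 2040, 270, 356, 523 and 1325 in that order, and the falls in the sum came from this gene. The lipid receptor gene Trem2 went the other way with DNFB (372 to 498) and was at 247 with H2O2. Adgre1, which encodes F4/80, was at 216 without treatment, 231 with DNFB and 435 with H2O2, and Siglech at 107, 105 and 118. Mertk was at 53.5, 26.7 and 69.1 in the same order, and Cx3cr1 at 142, 109 and 126, so both were lower with DNFB. The part of these markers in the result was not tested.

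P2ry13, a second ADP receptor, had signals of 814, 586 and 809 without treatment (1428700_at). They were 287, 214 and 225 with DNFB, 278, 283 and 227 with H2O2, 216, 283 and 204 with DPI, and 261, 421 and 355 with DPI + DNFB. Every treated array lay below every non-treated array. Among the treated groups, neighbouring means overlapped in range (DPI + DNFB 339, H2O2 262, DNFB 240, DPI 232).

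P2ry13 was the member called in all 4 comparisons with non-treated cells together with P2ry14. It fell 2.91-fold with DNFB (-1.54 ± 0.22, adjusted p = 2.28e-05), 2.69-fold with H2O2 (-1.43 ± 0.22, adjusted p = 5.14e-05), 3.01-fold with DPI (-1.59 ± 0.22, adjusted p = 1.43e-05) and 2.10-fold with DPI + DNFB (-1.07 ± 0.22, adjusted p = 7.87e-04). The DNFB difference was -1.62 within the arrays of either deposited scale, with a single DNFB array at 500 and a single non-treated array at 250. DPI + DNFB did not pass against DPI alone (0.52 ± 0.22, adjusted p = 0.0833) or against DNFB alone (0.47 ± 0.22, adjusted p = 0.0848). Both differences passed without DPI + DNFB replicate 1 (0.70, adjusted p = 0.0307, and 0.65, adjusted p = 0.0273).

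P2ry14 encodes the receptor for UDP-glucose. Its probe set 1424733_at gave 3384, 3643 and 3589 on the non-treated arrays, 2512, 1906 and 2068 with DNFB, and 1543, 1552 and 1668 with H2O2. With DPI it gave 1683, 2380 and 1612, and with DPI + DNFB 1484, 1978 and 1361. The non-treated arrays stood above all 12 treated arrays.

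P2ry14 fell 1.64-fold with DNFB (-0.72 ± 0.15, adjusted p = 0.00143), 2.22-fold with H2O2 (-1.15 ± 0.15, adjusted p = 1.08e-05), 1.89-fold with DPI (-0.92 ± 0.15, adjusted p = 1.11e-04) and 2.22-fold with DPI + DNFB (-1.15 ± 0.15, adjusted p = 1.14e-05). The arrays with H2O2 lay below those with DNFB, but the difference of 0.43 ± 0.15 did not pass (adjusted p = 0.0624). It passed with the replicate number as a block (adjusted p = 0.0455) and when DPI replicate 2, DPI + DNFB replicate 2 or DPI + DNFB replicate 3 was left out (adjusted p from 0.0353 to 0.256 over all arrays left out). DPI + DNFB was 1.35-fold below DNFB alone (-0.43 ± 0.15, adjusted p = 0.0264) with overlapping arrays. That call ended when DNFB replicate 1, DPI + DNFB replicate 1 or DPI + DNFB replicate 3 was left out (-0.59 to -0.32), and the difference was 0.02 with the beta-actin ratio as a covariate.

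**Figure D3:**
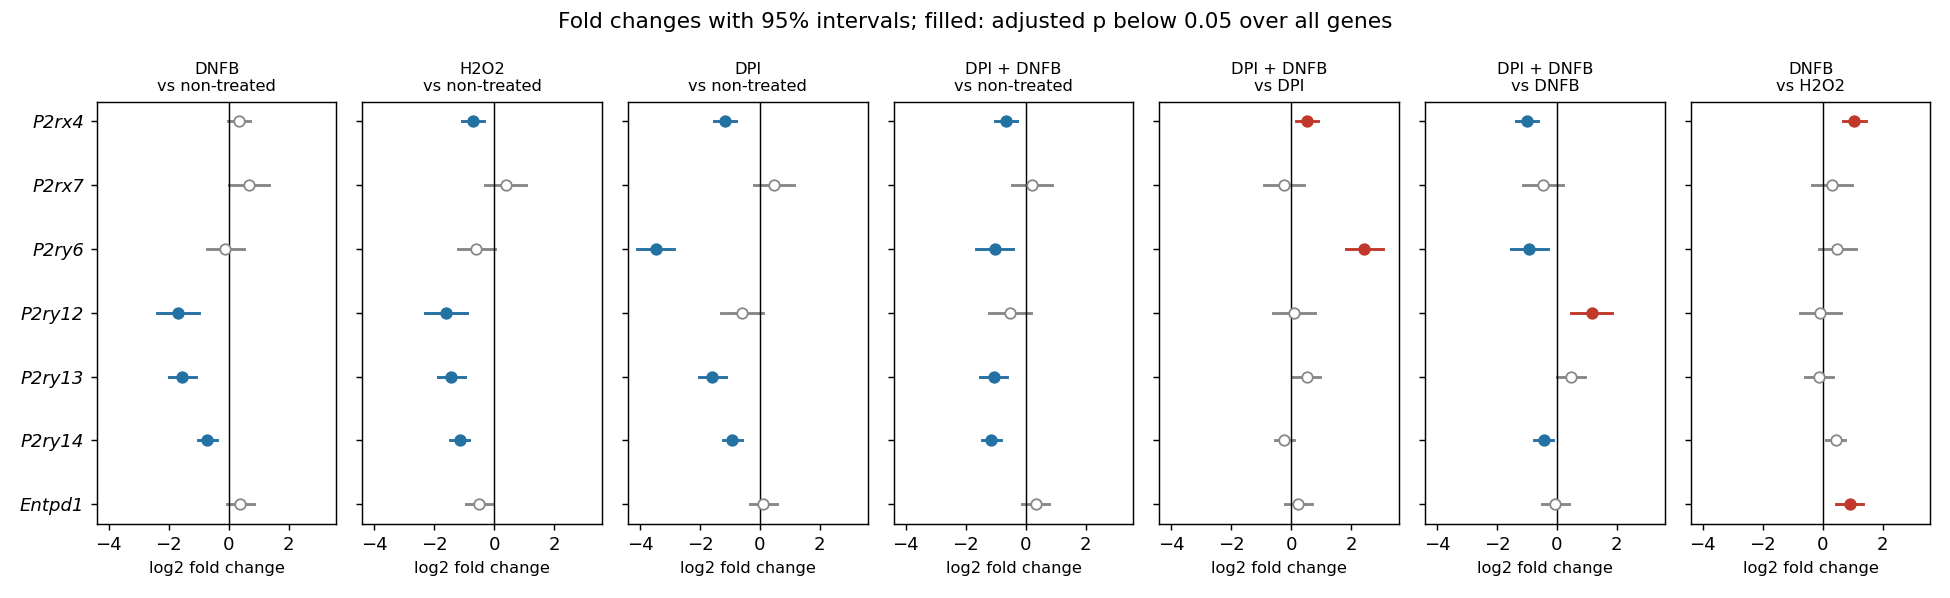
Log2 fold changes of the 7 tested members in the 7 pairwise comparisons, with 95% intervals from the limma fit, filled where the adjusted p over all genes was below 0.05 (blue lower, red higher). P2ry12, P2ry13 and P2ry14 are filled and below 0 for both DNFB and H2O2 against non-treated cells, and P2ry6 is at -3.47 with DPI and at 2.44 for DPI + DNFB against DPI.

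P2ry2, the receptor for UTP and ATP, was represented by 1 probe set, with signals from 3.78 to 11.8 over the 15 arrays and no group mean above 8.24. It was below the cutoff of 59.6 on every array, so no fold is given. A low reading from 1 probe set does not show that the transcript is absent.

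Entpd1 encodes CD39. Its probe set 1423326_at read 432, 357 and 394 without treatment, 592, 498 and 482 with DNFB, and 361, 318 and 174 with H2O2. The DPI arrays read 491, 410 and 385 and the DPI + DNFB arrays 494, 468 and 550. DNFB and DPI + DNFB lay above the non-treated arrays without overlap, while DPI and H2O2 overlapped them. Other probe sets of the gene shared this only in part. In 1450939_at DNFB overlapped the non-treated arrays (means 140 and 149) and DPI + DNFB lay above them (172). In 1453586_at DNFB lay above them (73.7 and 48.5) and DPI + DNFB overlapped them.

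No comparison of Entpd1 with non-treated cells passed: DNFB differed by 0.40 ± 0.21 (adjusted p = 0.208), H2O2 by -0.51 ± 0.21 (adjusted p = 0.0852), DPI by 0.11 ± 0.21 (adjusted p = 0.751) and DPI + DNFB by 0.34 ± 0.21 (adjusted p = 0.234). DNFB was 1.87-fold higher than H2O2 (0.90 ± 0.21, adjusted p = 0.00714). The lowest array was H2O2 replicate 3 at 174, and without H2O2 replicate 1 the H2O2 difference from non-treated cells passed (-0.70, adjusted p = 0.0258). In the fit over all probe sets, 1450939_at gave 0.93 ± 0.36 for DNFB against H2O2, which did not pass (adjusted p = 0.110), and -1.02 ± 0.36 for H2O2 against non-treated cells, which did (adjusted p = 0.0497). Another probe set, 1453586_at, was 2.71-fold higher with DPI than without treatment (1.44 ± 0.51, adjusted p = 0.0455), a rise that the other probe sets of the gene did not show (0.11 ± 0.22 and 0.04 ± 0.36).

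Nt5e, which encodes CD73, had 3 probe sets, none past the filter. In 1459023_at the H2O2 and DPI means of 70.7 and 80.2 were above the cutoff, and the arrays scattered from 12.4 to 257 over the experiment, with 16.6, 257 and 58.4 in the H2O2 group alone. The other Nt5e probe sets had no group mean above 39.9. No level of Nt5e could be ranked between groups from these values.

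The comparison of DPI + DNFB with DPI asks what DNFB did to cells that had the inhibitor. There 2 of 7 members rose (P2ry6 and P2rx4) and none fell, against 27.8% of all genes called, 14.1% higher and 13.7% lower. The median over the members was 0.23 and over all genes 0.08. The ranges did not overlap for 1 member, P2ry6, and for 38.6% of all genes. Against DNFB alone, DPI + DNFB had 1 of 7 members higher (P2ry12) and 3 lower (P2rx4, P2ry6 and P2ry14), with 44.2% of all genes called, 22.9% higher and 21.3% lower. The members' median was -0.43 and that of all genes 0.10, and ranges did not overlap for 3 members and 52.3% of all genes. Between DNFB and H2O2, which share no non-treated arrays, P2rx4 and Entpd1 were higher with DNFB and none was lower, against 14.7% of all genes called and 8.75% higher. Ranges did not overlap for 4 members and 33.0% of all genes.

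The scale also bears on these comparisons. Centring each array on its median log2 signal moved all differences from DPI + DNFB by -0.25 against non-treated cells, -0.25 against DPI and -0.27 against DNFB, and moved the interaction by -0.28. Of all genes, 7.24% were then called higher and 29.4% lower against non-treated cells, 5.24% and 22.5% against DPI, 12.7% and 30.0% against DNFB, and 8.65% and 19.0% above and below 0 in the interaction. The member calls kept their direction, and P2rx4 against DPI was the 1 call lost (0.26, adjusted p = 0.328). With quantile normalization that call was lost too (0.45), as were those of P2ry12 (0.90) and P2ry14 (-0.33) against DNFB. Between DNFB and H2O2, 7.76% of all genes were called higher and 3.20% lower after median centring.

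The higher beta-actin ratios of the DPI + DNFB arrays touch every comparison with that group. The mean ratio was 1.95 there and 1.25 to 1.35 in the other groups. A covariate that follows the group so closely cannot separate RNA quality from treatment, and a call lost with it does not show which was at work. With this ratio as a covariate, 0 of the 7 members were called against non-treated cells in limma and 2 had an unadjusted p below 0.05. The values were then -0.98 for P2rx4, -0.86 for P2ry6, -0.60 for P2ry13 and -0.60 for P2ry14. When that group was reduced to replicate 2, its array with the lowest ratio (1.504), 2 members were called. This alternative was chosen after seeing the data, on the beta-actin ratio alone. By the Gapdh 3'/5' ratio replicate 2 (0.952) still lay above every array of the other groups (highest 0.922), so the setting does not remove the difference in RNA quality. P2ry6 remained called against DPI under both settings (2.60 and 2.78).

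The effect of DNFB differed between cells with and without DPI for 3 of 7 members in a test of the interaction, all above 0, against 31.1% of all genes called, 17.3% above 0 and 13.8% below. For P2ry6, DNFB added to DPI raised the signal from 40.5 to 286, whereas without DPI the means were 599 and 556, and the effects differed by 2.55 ± 0.42 on the log2 scale (adjusted p = 1.15e-04). For P2ry13, the means went from 728 to 240 with DNFB alone and were 232 and 339 in the DPI groups, a difference between effects of 2.06 ± 0.31 (adjusted p = 4.21e-05). For P2ry12 they went from 290 to 80.4 without DPI and were 186 and 198 with DPI, a difference of 1.76 ± 0.47 (adjusted p = 0.00715). P2ry14 had an interaction of 0.49 ± 0.22 that did not pass (adjusted p = 0.0942) but did without DPI replicate 2 or DPI + DNFB replicate 3 (0.33 to 0.66 over all arrays left out). P2rx7 had one of -0.95 ± 0.45 (adjusted p = 0.124), and P2rx4 and Entpd1 0.16 ± 0.25 and -0.17 ± 0.30. Their other probe sets past the filter differed, also without a call. For P2rx4 1452527_a_at gave -0.68 ± 0.35 and 1446429_at 0.50 ± 0.51, and for Entpd1 1453586_at gave -1.62 ± 0.72 and 1450939_at 0.24 ± 0.50. Among the arrays deposited at 500, DNFB replicate 2 is the only DNFB array. The interaction there was 2.67 for P2ry6, 2.27 for P2ry13 and 1.48 for P2ry12, given with no test. At 250, where 3 of the 4 groups are single arrays, the values were 2.19, 1.88 and 2.47, with no test.

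**Figure D4:**
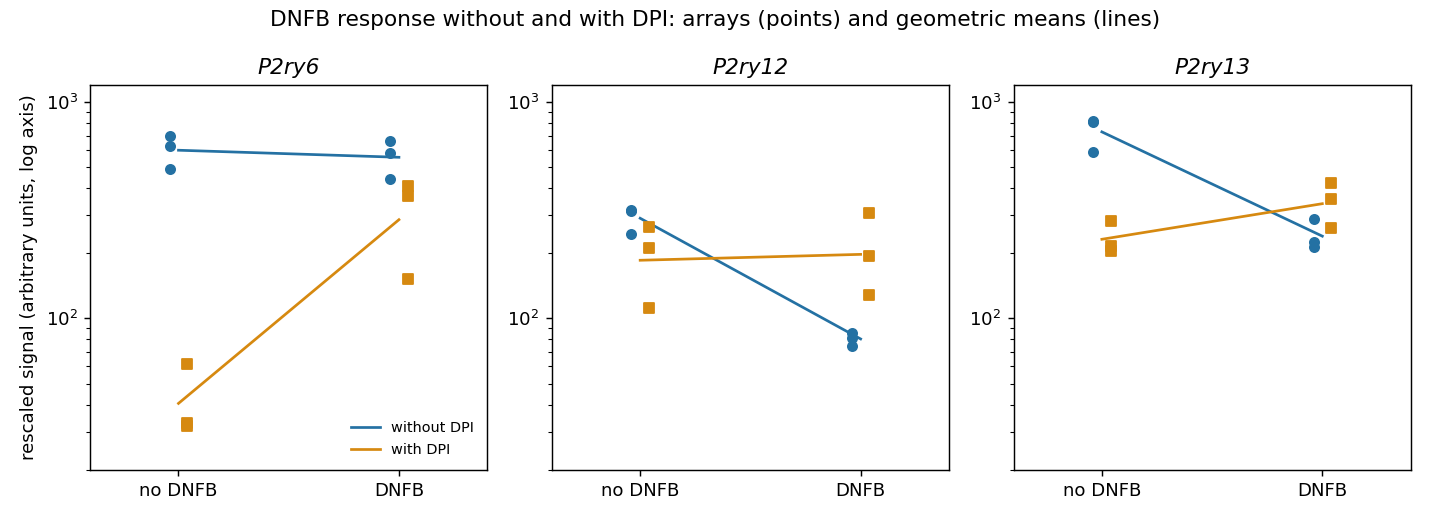
Rescaled signal (arbitrary units, log axis) of P2ry6, P2ry12 and P2ry13 without and with DNFB, in cells without DPI (blue circles) and with DPI (orange squares), with lines joining the group means. For P2ry12 and P2ry13 the line without DPI descends (290 to 80.4 and 728 to 240) and the line with DPI does not, and for P2ry6 the line with DPI climbs from 40.5 to 286.

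The signals of the members were also set against each other over the 15 arrays, as a description, since the arrays share treatment groups. P2ry13 and P2ry14 had r = 0.773, P2ry12 and P2ry13 r = 0.700, and P2ry12 and P2ry14 r = 0.544. P2rx4 and P2ry6 had r = 0.742, while P2rx4 and P2ry12 had r = -0.17. By the same measure over all tested genes, the patterns most like that of P2ry6 were those of the DNA ligase gene Lig3 (r = 0.958) and the zinc finger gene Zbtb22 (r = 0.955), whose means with DPI were 230 and 212, the lowest of their groups. P2ry12 was most like the small GTPase gene Rab19 (r = 0.932) and the kinase gene Vrk1 (r = 0.913). P2ry13 was most like Sit1 (r = 0.924), which encodes a signalling adaptor of lymphocytes, and the lysosomal trafficking gene Lyst (r = 0.916). P2rx4 was most like the retinol dehydrogenase gene Rdh14 (r = 0.937) and the complement C5a receptor gene C5ar1 (r = 0.927), which had a mean of 644 without treatment, 926 with DNFB and 83.0 with DPI.

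On chromosome 3, P2ry14, P2ry13 and P2ry12 lie within the span of Med12l, a Mediator subunit gene, together with the receptor gene Gpr171. Gpr171 had a DNFB difference of 0.30 ± 0.16 that did not pass (adjusted p = 0.194) and fell with H2O2 (-0.93 ± 0.16, adjusted p = 1.59e-04), DPI (-0.80 ± 0.16, adjusted p = 6.68e-04) and DPI + DNFB (-0.94 ± 0.16, adjusted p = 1.32e-04). Med12l fell with DNFB (-0.87 ± 0.21, adjusted p = 0.00372) but did not pass with H2O2 (-0.46 ± 0.21, adjusted p = 0.106), DPI (0.26 ± 0.21, adjusted p = 0.381) or DPI + DNFB (-0.22 ± 0.21, adjusted p = 0.436). The counting of these genes rests on 1 probe set per gene. P2rx7 and P2rx4 are also neighbours, on chromosome 5, and their signals had r = 0.076 over the 15 arrays.

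Among other nucleotide and adenosine receptors, 6 of 10 genes were tested, and none rose against non-treated cells in any treated group. With DNFB 2 fell, with H2O2 1, with DPI 2 and with DPI + DNFB 1. Over all genes 13.9%, 17.4%, 18.4% and 18.7% were called lower in these comparisons. Higher calls made up 10.5% with DNFB, 10.9% with H2O2 and 13.3% with DPI. DPI + DNFB against DPI had 14.1% higher and 13.7% lower. Neither these counts nor those of the lists below were tested against such shares. The adenosine A3 receptor gene Adora3 fell with DNFB (463 to 155, -1.49 ± 0.28, adjusted p = 4.82e-04), H2O2 (-1.14 ± 0.28, adjusted p = 0.00431) and DPI (-1.61 ± 0.28, adjusted p = 1.90e-04). The ATP-gated channel gene P2rx5 fell with DNFB (-0.67 ± 0.23, adjusted p = 0.0399) and DPI (744 to 161, -2.11 ± 0.23, adjusted p = 1.08e-06). Both rose when DNFB was added to DPI, by 1.01 ± 0.28 for Adora3 and 1.01 ± 0.23 for P2rx5 (adjusted p = 0.0108 and 0.00305). Their interactions were 2.51 ± 0.40 and 1.68 ± 0.33 (adjusted p = 8.06e-05 and 5.91e-04), against 17.3% of all genes called above 0. The sign follows from the rise with DPI and the fall without it, and is no separate result.

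Of 18 other genes for enzymes linked to nucleotides or adenosine, 12 were tested. None rose and 2 fell with DNFB and with H2O2, the phosphatase Acpp (-0.97 ± 0.12 and -0.39 ± 0.12) and Enpp4 (-0.59 ± 0.20 and -0.58 ± 0.20). With DPI 1 rose and 3 fell. Adenosine deaminase, Ada, rose 2.62-fold (106 to 302, adjusted p = 0.00136), and Entpd6 (-0.76 ± 0.25) and Enpp4 (-0.54 ± 0.20) had the largest falls. With DPI + DNFB against DPI, 2 rose (Entpd8 by 1.502 ± 0.53, at least 1.69-fold with the 2 DPI arrays below the cutoff set to it, and with overlapping ranges, and Entpd6 by 0.87 ± 0.25) and 2 fell (Entpd7 by -1.01 ± 0.27 and Acpp by -0.43 ± 0.12).

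Nucleotide release and nucleoside transport had 6 of 10 genes tested. The ATP release channel Panx1 fell in all 3 single treatments, from 1113 to 403 with DNFB (-1.43 ± 0.17, adjusted p = 4.19e-06), 356 with H2O2 (-1.60 ± 0.17, adjusted p = 9.98e-07) and 722 with DPI (-0.61 ± 0.17, adjusted p = 0.0103). In all, 1 gene rose and 2 fell with DNFB, 0 and 2 with H2O2, and 1 and 2 with DPI. The nucleoside transporter Slc29a1 fell with DNFB (-0.67 ± 0.18), and its relative Slc29a3 fell with H2O2 (-0.97 ± 0.23) and DPI (-1.92 ± 0.23) and rose with DPI + DNFB against DPI (0.83 ± 0.23). The volume-regulated channel subunit Lrrc8a rose with DNFB (0.47 ± 0.16) and the connexin gene Gja1 with DPI (1.12 ± 0.40).

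All 9 genes listed for purine salvage and related nucleotide and adenosine metabolism were tested. With DNFB and with H2O2 none rose and 3 fell, led by the AMP deaminase Ampd3 (-0.99 ± 0.16 and -1.73 ± 0.16) and adenosine kinase, Adk (-0.72 ± 0.12 and -0.68 ± 0.12). With DPI 4 rose and 3 fell, among them adenosylhomocysteinase, Ahcy (1.05 ± 0.12), purine nucleoside phosphorylase, Pnp (0.64 ± 0.11), Ampd3 (-1.91 ± 0.16) and Nt5c2 (-0.68 ± 0.18). With DPI + DNFB against DPI 2 rose (Ampd3 by 0.71 ± 0.16 and Ampd2 by 0.61 ± 0.14) and 3 fell, led by Nt5c3 (-0.67 ± 0.16) and Pnp (-0.51 ± 0.11).

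The 9 genes listed as linked to the NLRP3 inflammasome and interleukin-1 cytokines were all tested. With DNFB 2 rose, the cytokines Il1b (250 to 983, 1.91 ± 0.23, adjusted p = 3.24e-06) and Il1a (1.38 ± 0.25, adjusted p = 3.21e-04), and 5 fell, led by the adaptor Pycard (-1.33 ± 0.14, adjusted p = 6.44e-07) and Txnip (-1.27 ± 0.14, adjusted p = 1.51e-06). With H2O2 3 rose and 4 fell, including Il1a (1.67 ± 0.25), Il18 (1.16 ± 0.14), the protease Casp1 (-0.95 ± 0.13) and Nek7 (-0.90 ± 0.12). With DPI 1 rose, Il1b (0.90 ± 0.23), and 1 fell, Txnip (-1.85 ± 0.14). With DPI + DNFB against DPI 5 rose, including Il1b (1.02 ± 0.23) and Il1a (0.78 ± 0.25), and 1 fell, Casp1 (-0.61 ± 0.13). P2rx7 itself passed in none of these comparisons.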

How the data were processed

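RNA of 15 samples was measured on 1-colour Affymetrix arrays. The deposited values are intensity on a linear scale, 1 signal per probe set, made by the authors with MAS5 in Affymetrix Expression Console per the submitters' processing notes, with no versions given. MAS5 scales each array to a set trimmed mean, and 6 arrays stood at 250 and 9 at 500, so each was rescaled to a 2% trimmed mean of 500. A pseudocount of 15 was added before log2. Symbols came from the platform annotation, updated through gene identifiers: of 45037 probe sets besides 64 controls, 34945 had 1 symbol, 932 several and 9160 none.

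Probe sets with a mean log2 signal at or above the 40th percentile (6.22) were kept, 27022 in all, and each of 12701 genes was represented by its brightest probe set. The 5 group means were fitted to all 15 arrays by lmFit, contrasts.fit and eBayes with trend (limma 3.58.1, R 4.3.3), leaving 10 residual degrees of freedom, and p-values were Benjamini-Hochberg adjusted over all genes in each of 8 comparisons, with calls at an adjusted p below 0.05. Values for single probe sets come from the same fit over all 27022 probe sets. The median SE of a difference was 0.197 on the log2 scale, and the number of arrays limits the precision. The steps were tested on simulated data.

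All members were named whatever their values. From each of 5 lists of related genes, up to 2 rises and 2 falls of largest size among the calls in 4 comparisons were named, and for the 4 members with the widest range of group means the 2 most correlated genes. The interaction values of Adora3 and P2rx5, Gpr171 and Med12l, and the bounds for groups below the cutoff, were added after their values were seen. Members and lists were chosen with earlier results of these data known. Gene positions and promoters were taken from RefSeq tables. Alternatives covered the pseudocount, filter, normalization, scaling, probe set rule, variance model, replicate number, RNA quality and each array left out. Same-numbered arrays were checked for pairing and were not treated as pairs.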

Additional observations from a re-analysis of the deposited data

Results flagged for a closer look

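For 3 members the effect of DNFB with DPI differed from its effect without DPI in a test of that difference (limma interaction, adjusted over 12701 genes). The effects differed by 2.55 on the log2 scale for P2ry6, by 2.06 for P2ry13 and by 1.76 for P2ry12. Over the fits that left out 1 array each, these values ranged from 2.30 to 2.97 for P2ry6, from 1.91 to 2.24 for P2ry13 and from 1.43 to 2.05 for P2ry12, and the largest adjusted p was 0.0219. Within the arrays deposited at 500, where DNFB replicate 2 is the only DNFB array, the P2ry12 difference was 1.48, given with no test. With the values as deposited it was 1.96 (adjusted p = 0.242), and that of P2ry13 was 2.35 (adjusted p = 0.0627), neither called, while P2ry6 was (2.77, adjusted p = 0.0165). The beta-actin 3'/5' ratio was highest on 2 of the 3 DPI + DNFB arrays (2.07 and 2.29). With that ratio as a covariate the differences were 2.68 for P2ry6, 2.42 for P2ry13 and 2.55 for P2ry12, and with replicate 2 as the lone DPI + DNFB array 2.89, 2.36 and 2.36, all called.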

How the results depend on the processing

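Of the 26 member differences called over 8 comparisons, 362 of 416 values kept their call over 16 other settings, 53 kept the direction but lost the call, and 1 turned: P2ry14 in DPI + DNFB against DNFB was 0.02 with the beta-actin ratio as a covariate. Of 480 values for differences not called, 22 changed sign and 10 gained a call, and the causes were not tested. P2ry2 and Nt5e were too dim to test.

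The number of members called moved most with the values as deposited, where the spread within groups holds both scales: 0 for H2O2, 1 for DPI, 0 for DPI + DNFB against non-treated cells, 1 against DPI, 0 against DNFB, 0 for DNFB against H2O2 and 1 for the interaction. At an unadjusted p below 0.05 limma gave 3, 3, 1 and 0 members where that count was 0. Calls over all genes fell in that setting too, to 0.803% higher and 0.583% lower with H2O2. They were 0.725% and 0.693% for DPI + DNFB against non-treated cells, 0.0473% and 0.00788% against DPI, and 5.18% and 1.35% against DNFB. For the interaction they were 0.764% above 0 and 0.315% below. The loss of calls as deposited was therefore not particular to the members. With the beta-actin ratio as a covariate 0 members were called for DPI + DNFB against non-treated cells (2 unadjusted), 1 against DPI and 2 against DNFB. The ratio largely follows the DPI + DNFB group, so this setting cannot separate RNA quality from treatment. With DPI + DNFB replicate 2 alone, chosen after seeing the data and with its spread assumed like that of other groups, 2 were called against non-treated cells and 1 against DPI. That count against DPI was also 1 with quantile normalization, median centring, the mean of all probe sets of a gene, only the groups compared, and arrays at 500. Against DNFB it was 2 with quantile normalization. DNFB against H2O2 gave 1 with the mean of probe sets. Counts for comparisons with DNFB within a single deposited scale carry no weight and are left out. DNFB replicate 2 is the only DNFB array at 500, and at 250 all groups but DNFB hold 1 array.

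Signs that changed among differences not called were as follows. For Entpd1, DPI + DNFB against DNFB was 0.01 with the mean of probe sets, 0.03 at 500, 0.02 with the scale as a block and 0.27 as deposited, against DPI it was -0.02 after median centring and -0.25 with the mean of probe sets, and the interaction was 0.16 as deposited. The P2rx4 interaction was -0.28 with DPI + DNFB replicate 2 alone, -0.09 with the covariate, -0.11 after median centring and -0.01 with the mean of probe sets. P2rx7 in DPI + DNFB against non-treated cells was -0.03 after median centring and -0.11 at 250. P2ry12 was 0.03 at 250 for DNFB against H2O2. In DPI + DNFB against DPI it was -0.17 after median centring, -0.23 at 500 and -0.16 with quantile normalization, and against non-treated cells 0.08 with replicate 2 alone and 0.51 with the covariate. P2ry14 in DPI + DNFB against DPI was 0.09 with replicate 2 alone and 0.28 with the covariate, and P2ry6 with DNFB was 0.07 at 500.

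With each array left out in turn, the members called numbered 3 for DNFB, 4 to 5 for H2O2, 4 for DPI and 3 to 4 for DPI + DNFB against non-treated cells, 1 to 2 against DPI, 3 to 4 against DNFB, 2 to 3 for DNFB against H2O2 and 3 to 4 for the interaction. Of 390 values of called differences 11 lost the call and none turned. Signs changed for P2ry6 with DNFB (-0.24 to 0.05), P2ry12 in DPI + DNFB against DPI (-0.24 to 0.37) and DNFB against H2O2 (-0.15 to 0.03), and Entpd1 in DPI + DNFB against DNFB (-0.12 to 0.04).

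Replicate numbers were not taken as pairs, since the hint of pairing came from the data only. Between arrays of different groups, deviations from the group means had a median r of 0.074 for the same number and -0.033 for other numbers. Of 30 same-numbered pairs 9 were above 0.1, and all 15 arrays correlated best with their own number. The main p-values do not take this structure into account. With the replicate number as a block, 3, 4, 4, 4, 2, 4, 3 and 3 members were called in the 8 comparisons, in the order above, and P2ry14 became called for DNFB against H2O2 (0.43, adjusted p = 0.0455).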
